A study of Mus musculus with 6 samples.

Results

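The mitochondrial ribosomal protein genes were examined in cultured smooth muscle cells of aged and young mouse aorta (VSMCs, the cells whose contraction sets the width of the vessel). The genes were taken by name, as every gene whose only symbol on the array began with Mrpl or Mrps followed by a digit, and these amounted to 71 of the 22180 genes with a single symbol. By symbol, 43 belonged to the large subunit (Mrpl) and 28 to the small subunit (Mrps). A gene with several probe sets was represented by the one with the highest mean over the 6 arrays, which applied to 9 of the 71 genes.

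The old group held 3 samples of VSMCs from C57BL/6 mice of 58 to 78 weeks, and the young group held 3 samples from C57BL/6 mice of 12 weeks. All 6 samples were labelled male and untreated, and each was hybridised to its own Affymetrix whole-transcript array. The primary cells were bought from 2 companies that each supplied a medium, were passaged at most 3 times, and are not assigned to a company sample by sample in the labels or methods. Nothing in the labels ties each sample to a mouse of its own, so every p-value below reflects sample-to-sample spread that could be technical.

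Mitochondria carry their own ribosomes, which translate the few respiratory chain proteins encoded by mitochondrial DNA. The ribosomal RNAs of these particles come from the mitochondrial genome, while all of their proteins are made from nuclear genes, translated in the cytosol and imported. Some of these proteins descend from the ribosome of the bacterial ancestor, and others were added during the evolution of mitochondria and have no bacterial counterpart. In smooth muscle, as in other tissues, the particle is needed to build the oxidative phosphorylation complexes, and defects in several of its proteins cause mitochondrial disease in humans.

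Values below are log2 signals as deposited, and each difference is the mean of the old samples minus that of the young samples, so that a positive value means a higher signal in old VSMCs. Probe sets differ in brightness for reasons other than RNA amount, so no RNA level of one gene was set against that of another, and mean signal served only to choose which genes to name and which other genes to use as background. In whole cultures, fewer cells of a type and less RNA per cell cannot be told apart.

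Of 10 smooth muscle markers, Acta2 lay between 11.4 and 12.8 on the 6 arrays and Tagln between 8.80 and 10.30. Smtn lay between 7.52 and 8.39, Lmod1 between 6.86 and 8.53, Myh11 between 6.37 and 7.18 and Myocd between 5.74 and 6.60. Des, Actg2 and Mylk lay between 4.86 and 7.27. Cnn1 lay between 8.02 and 8.90 in old VSMCs, against 5.88, 8.76 and 5.38 in Young 1 to Young 3. Its difference of 1.81 passed the limits of the study's methods, which are given below. The fibroblast markers Dcn (11.9 to 12.4) and Pdgfra (10.0 to 11.5) gave signals as well, so the arrays do not settle the smooth muscle label. The male label was not matched by Xist in the old samples. Xist, the RNA that coats the inactive X chromosome of female cells, measured 6.32, 7.81 and 9.80 in Old 1, Old 2 and Old 3, against 3.49, 3.56 and 3.92 in Young 1, Young 2 and Young 3. The Y-linked gene Eif2s3y was 8.07 in Old 3 and between 8.90 and 9.11 on the other 5 arrays. Because Xist separated the groups fully, a difference in the sex of the cells cannot be told apart from age in any comparison below. Young 3 stood apart from the other arrays, with the lowest mean correlation with the other arrays (0.969, against 0.976 to 0.981) and the highest median signal (5.58, against 5.39 to 5.45). The main counts of genes and most list medians below are therefore given with and without Young 3.

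Promoters are shown first for the 3 genes that alone passed the unadjusted limit in every fit without 1 of the samples. They run from 250 bases before to 50 bases after the RefSeq transcription start, 5′ to 3′ on the strand of the gene, in GRCm38.p6. Mrpl49, a large-subunit protein with no bacterial counterpart, starts on the minus strand at chr19:6057706-6058005. Mrps2, a small-subunit protein with a bacterial counterpart, lies on the plus strand at chr2:28467816-28468115. Mrpl24, which sits beside the exit tunnel of the large subunit, lies on the plus strand at chr3:87919294-87919593.
Mrpl49: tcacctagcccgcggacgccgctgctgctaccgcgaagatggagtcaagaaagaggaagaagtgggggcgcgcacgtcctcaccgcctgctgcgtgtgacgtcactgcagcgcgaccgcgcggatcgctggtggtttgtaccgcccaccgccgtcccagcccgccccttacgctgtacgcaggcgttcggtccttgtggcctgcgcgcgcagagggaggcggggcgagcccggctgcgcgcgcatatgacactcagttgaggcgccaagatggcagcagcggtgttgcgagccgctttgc
Mrps2: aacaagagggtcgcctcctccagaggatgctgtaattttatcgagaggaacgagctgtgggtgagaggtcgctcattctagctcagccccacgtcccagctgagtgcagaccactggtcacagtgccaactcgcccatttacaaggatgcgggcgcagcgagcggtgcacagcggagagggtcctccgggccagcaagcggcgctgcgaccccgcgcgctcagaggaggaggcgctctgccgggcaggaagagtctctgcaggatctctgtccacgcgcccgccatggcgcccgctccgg
Mrpl24: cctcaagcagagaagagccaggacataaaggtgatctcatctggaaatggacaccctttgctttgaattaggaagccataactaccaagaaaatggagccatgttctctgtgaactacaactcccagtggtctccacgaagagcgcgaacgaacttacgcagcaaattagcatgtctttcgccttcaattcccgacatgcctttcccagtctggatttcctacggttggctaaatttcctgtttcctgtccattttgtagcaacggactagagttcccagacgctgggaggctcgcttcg
The promoter of Mrpl49 had 68.3% G and C, that of Mrps2 had 65.0% and that of Mrpl24 had 48.3%. None of these 3 windows held any of the 3 motifs described next, so all of their letters are in lower case.

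RefSeq promoters were found for 62 of the 71 genes, and were searched on both strands for exact matches to GCGCATGCG, the core bound by NRF1, to CCGGAAGT, a site of ETS factors such as GABP, and to AAGATGGCG, a site of YY1. These factors are known regulators of nuclear genes for mitochondrial proteins. The NRF1 letters can match on both strands at overlapping positions, and the last 3 letters of the YY1 motif are the first 3 of the NRF1 motif. The NRF1 letters stood in the promoters of 7 of the 62 genes (11.3%), against 1.75% of all 32851 promoters and 2.65% of the 16990 tested genes with a promoter. The ETS letters stood in 10 genes (16.1%), against 3.89% of all promoters and 5.62% of tested genes. The YY1 letters stood in 8 genes (12.9%), against 1.40% of all promoters and 2.17% of tested genes. At least 1 of the motifs was present in 24 genes (38.7%), against 9.82% of tested genes. A match is a string of letters and not a measured binding site, and a window without one says nothing about the factor.

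Stretches of 60 bases with the motif in capitals are shown for the genes that were higher in old VSMCs at an unadjusted p under 0.05 and held a motif, and for Mrps11, whose start faces that of another gene of the set. Mrpl32, chr13:14613091-14613150 on the minus strand, holds the NRF1 letters from position -87 to -79, where the start itself counts as 0, and the first of its 3 matches is in capitals. Mrpl51, chr6:125192084-125192143 on the plus strand, holds the ETS letters from -90 to -83. Mrpl52, chr14:54426884-54426943 on the plus strand, holds the reverse complement of the ETS letters from 1 to 8. Mrps11, chr7:78782997-78783056 on the plus strand, holds the reverse complement of the YY1 letters from -108 to -100.
Mrpl32: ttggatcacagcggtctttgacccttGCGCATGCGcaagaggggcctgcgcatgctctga
Mrpl51: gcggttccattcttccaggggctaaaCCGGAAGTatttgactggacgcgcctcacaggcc
Mrpl52: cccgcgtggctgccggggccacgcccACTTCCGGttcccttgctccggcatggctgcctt
Mrps11: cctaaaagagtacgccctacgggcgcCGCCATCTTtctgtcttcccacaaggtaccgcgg
Motifs were thus present both in genes that passed the unadjusted limit and in Mrps11, which measured 7.53, 7.48 and 7.52 in Old 1 to Old 3, against 7.38, 7.34 and 7.59 in Young 1 to Young 3. The Mrps11 groups overlapped, with the highest value in Young 3.

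The first question was whether any mitochondrial ribosomal protein gene differed between old and young VSMCs by the limits of the study's methods, an absolute log2 difference over 1 with an unadjusted p under 0.05 in limma. None of the 71 genes passed in either direction. Over all genes tested, 0.325% passed as higher in old VSMCs and 0.676% as lower. The 71 differences lay between -0.50 and 0.68, and 47 of them were smaller than 0.2 in absolute size. The 95% interval excluded a difference of 1 in either direction for 70 of the 71 genes, the exception being Mrpl49, whose interval reached 1.20. At an adjusted p under 0.05 (limma, Benjamini-Hochberg over all genes), 0 of the 71 genes passed, against 0.0451% of all genes (10 of 22180). The adjusted p of the 71 genes ran from 0.317 to 0.998.

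Without the limit on size, 10 of the 71 genes (14.1%) were higher in old VSMCs at an unadjusted p under 0.05 in limma, against 6.71% of all genes, and 1 gene (1.41%) was lower, against 4.72% of all genes. Of the 10 higher genes, 8 belonged to the large subunit and 2 to the small. Every old sample lay above every young sample in 15 genes (21.1%), against 11.1% of all genes. Every old sample lay below every young sample in 1 gene (1.41%), against 6.95% of all genes. Without Young 3, old lay above in 22.5% of the 71 genes, against 16.5% of all genes. Old then lay below in 3 of the 71 genes, against 2459 of all 22180 genes. The difference was above 0 in 54 genes (76.1%), against 56.3% of all genes, and without Young 3 in 46 genes (64.8%), against 56.6% of all genes. The median difference was 0.13 over the 71 genes and 0.03 over all genes. Of all calls at an unadjusted p under 0.05 over all genes, 58.7% were higher in old VSMCs. With the arrays centred on their medians that share was 75.7%, the median difference of all genes moved to 0.11 and that of the 71 genes to 0.20, and the small negative differences given below for Mrpl11, Mrpl27, Mrpl46, Mrps12, Mrps15, Mrps26 and Mrps34 turned positive.

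Most of these genes had signals above the median gene of the array (67 of 71), and shares of calls varied with signal, so the same values were taken over 2887 other genes whose mean signal lay in the interquartile range of the 71 genes (6.73 to 7.70). In that range, 10.5% of genes passed an unadjusted p of 0.05 as higher in old VSMCs and 4.88% as lower. Old and young samples did not overlap in 15.9% of them with old above and in 6.79% with old below, the difference was above 0 in 64.7%, and their median difference was 0.08. The limits of the study's methods were passed by 0.658% as higher and 1.32% as lower, and 0.104% passed at an adjusted p under 0.05. The 14.1% of ribosomal genes that were higher thus stood closer to the 10.5% of genes of like signal than to the 6.71% of all genes.

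**Figure D1:**
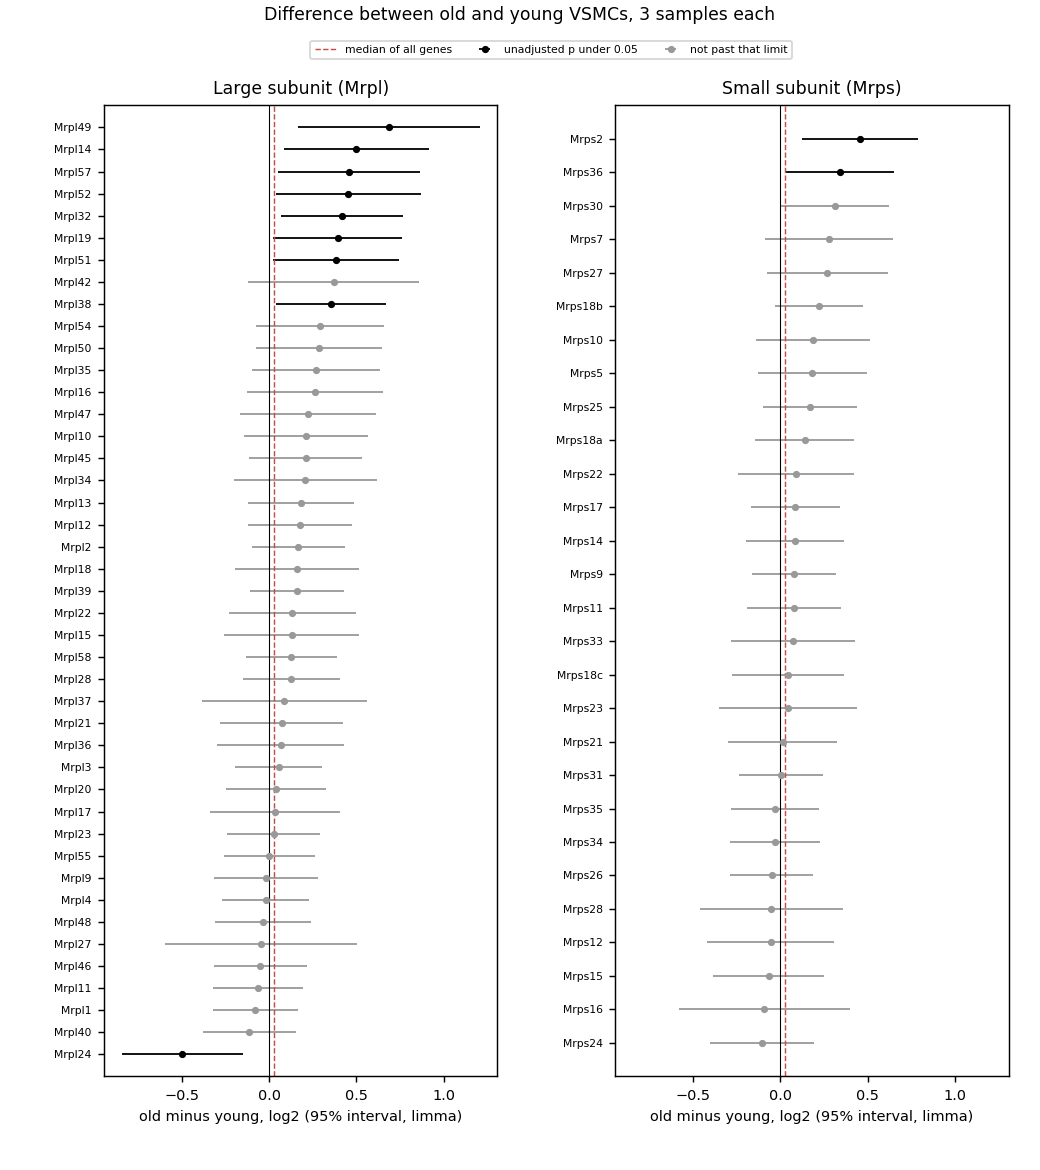
Old minus young difference in log2 signal for the 43 large-subunit and 28 small-subunit genes, with the 95% interval from limma (3 samples per group). Black marks genes at an unadjusted p under 0.05 and the dashed line the median of all genes (0.03). Mrpl49 (0.68) and Mrpl24 (-0.50) lie at the ends.

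Mrpl49 had the largest difference of the 71 genes. Its log2 signal was 7.71, 7.91 and 7.90 in Old 1, Old 2 and Old 3, against 7.38, 7.48 and 6.60 in Young 1, Young 2 and Young 3. The groups did not overlap, and Young 3 lay well below the other young samples. Mrpl49 averaged 7.84 ± 0.12 in old and 7.15 ± 0.48 in young VSMCs (SD, n = 3 each), a difference of 0.68 with a standard error of 0.23 (1.61-fold; limma, adjusted p = 0.337). Without Young 3 the difference was 0.41 and still passed the unadjusted limit of 0.05.

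Mrps2, the counterpart of a bacterial small-subunit protein and a human mitochondrial disease gene, measured 6.89, 7.07 and 7.03 in Old 1 to Old 3, against 6.50, 6.79 and 6.33 in Young 1 to Young 3. All old samples lay above all young samples, and the nearest pair, Old 1 and Young 2, differed little. The difference was 0.46 with a standard error of 0.14 (limma, adjusted p = 0.322), and it was 0.35 without Young 3, past the unadjusted limit. Among genes higher in old VSMCs, Mrps2 had the largest moderated t statistic.

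Mrpl24, a protein at the exit of the tunnel through which the new chain leaves the large subunit, was the only gene of the set that was lower in old VSMCs at an unadjusted p under 0.05. It measured 8.70, 8.37 and 8.54 in Old 1 to Old 3, against 9.15, 8.78 and 9.16 in Young 1 to Young 3. Every old sample lay below every young sample, and Young 1 and Young 3 were level with each other. The difference was -0.50 with a standard error of 0.15 (limma, adjusted p = 0.317), and -0.43 without Young 3, past the unadjusted limit. Among the 11 genes past the unadjusted limit, only Mrpl24, Mrpl49 and Mrps2 stayed past it whichever of the 6 samples was removed. How many of all genes did so was not counted, so these 3 genes have no background share.

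**Figure D2:**
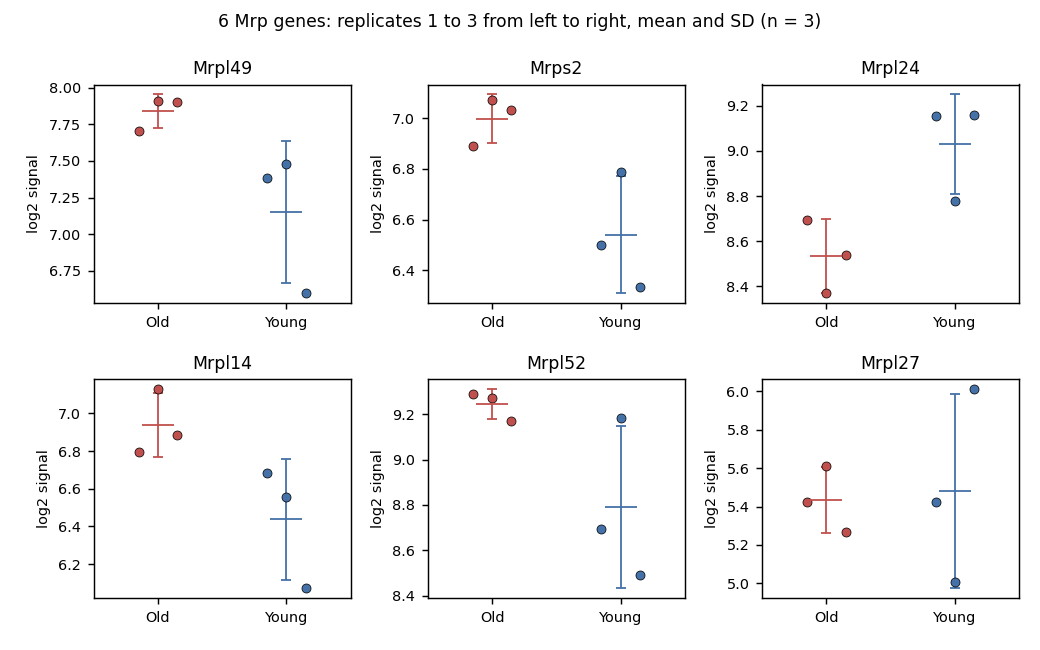
Log2 signal (vertical axis) of 6 genes in the 3 old and 3 young samples, replicates 1 to 3 from left to right in each group, with the mean and SD. The groups do not overlap in Mrpl49, Mrps2, Mrpl24 and Mrpl14, and they overlap in Mrpl52 and Mrpl27.

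The other 8 genes past the unadjusted limit were higher in old VSMCs by 0.34 to 0.50, and none of them passed it without Young 3. Mrpl14, a conserved protein at the interface between the subunits, measured 6.80, 7.13 and 6.89 in Old 1 to Old 3, against 6.68, 6.56 and 6.07 in Young 1 to Young 3. The groups did not overlap, and Young 3 was the lowest sample. Mrpl32, which in mouse is cut by the m-AAA protease before it is assembled, measured 6.42, 6.08 and 6.39 in Old 1 to Old 3, against 5.95, 6.03 and 5.65 in Young 1 to Young 3. Old 2 and Young 2 nearly met in Mrpl32. Mrpl19, with a bacterial counterpart, measured 7.42, 7.67 and 7.34 in Old 1 to Old 3, against 7.13, 7.31 and 6.81 in Young 1 to Young 3, with Old 3 and Young 2 close together.

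Among proteins with no bacterial counterpart, Mrpl57 measured 7.06, 6.83 and 6.85 in Old 1 to Old 3, against 6.37, 6.82 and 6.17 in Young 1 to Young 3. Mrpl38, a protein of the central protuberance, measured 7.95, 7.87 and 7.87 in Old 1 to Old 3, against 7.52, 7.77 and 7.33 in Young 1 to Young 3. Mrpl51 measured 7.63, 7.80 and 7.68 in Old 1 to Old 3, against 7.42, 7.54 and 7.01 in Young 1 to Young 3. In each of these 3 genes Young 2 came close to the old samples and Young 3 was the lowest. Mrpl52 measured 9.29, 9.27 and 9.17 in Old 1 to Old 3, against 8.70, 9.19 and 8.49 in Young 1 to Young 3. Young 2 exceeded Old 3 in Mrpl52, which made it the only gene of the 10 whose groups overlapped.

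Mrps36 carries a ribosomal symbol, but its product is known as a component of the 2-oxoglutarate dehydrogenase complex of the citric acid cycle. It measured 4.82, 4.73 and 5.12 in Old 1 to Old 3, against 4.63, 4.52 and 4.49 in Young 1 to Young 3, and the groups did not overlap. Without Mrps36, 9 of 70 genes were higher at an unadjusted p under 0.05. In all 10 genes that were higher in old VSMCs, the lowest value was that of Young 3.

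The count of genes depended on single samples. Without Young 3, 2 of the 71 genes (2.82%) passed an unadjusted p of 0.05 as higher and 2 as lower, against 5.03% and 4.36% of all genes in the same fit. The second lower gene was Mrps16, which measured 7.44, 7.40 and 7.51 in Old 1 to Old 3, against 7.75, 7.86 and 7.02 in Young 1 to Young 3. Young 3 lay below, and the other young samples above, all old samples in Mrps16. Without Young 2, 15 genes were higher (21.1%, against 9.13% of all genes in that fit). Without Old 1, 3 genes were higher (4.23%, against 6.27% of all genes), without Old 2, 4 (5.63%, against 4.02%), without Old 3, 4 (5.63%, against 4.05%) and without Young 1, 7 (9.86%, against 6.01%). The share over the ribosomal genes was thus below that over all genes without Young 3 and without Old 1. The median difference of the 71 genes was 0.06 without Young 3 and 0.18 without Young 2.

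**Figure D3:**
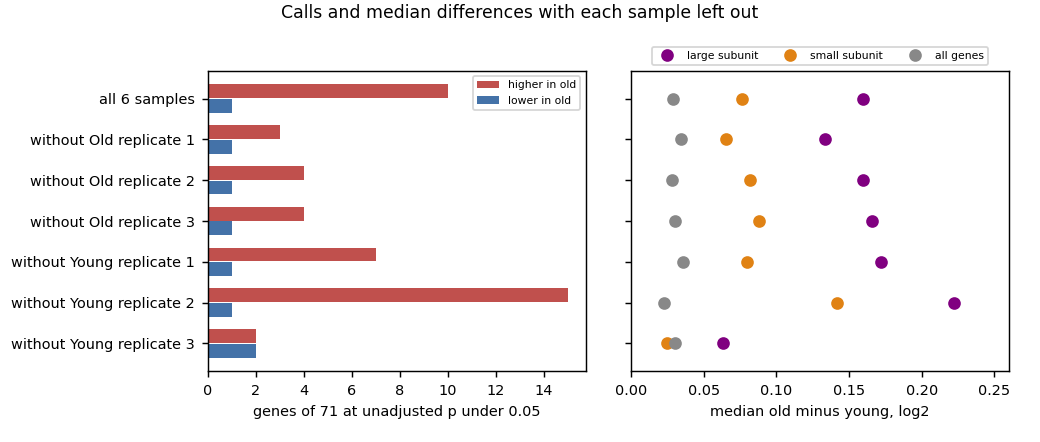
Left, the number of the 71 genes at an unadjusted p under 0.05 (horizontal axis) with all 6 samples and with each sample left out in turn. Right, the median old minus young log2 difference of large-subunit genes, small-subunit genes and all genes in the same fits: counts of higher genes ran from 2 without Young 3 to 15 without Young 2.

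Averaged over the 71 genes, the log2 signal was 7.30, 7.30 and 7.26 in Old 1, Old 2 and Old 3, against 7.16, 7.30 and 7.00 in Young 1, Young 2 and Young 3. The old samples were close together, Young 2 was level with them, and Young 3 was the lowest. The mean over samples was 7.29 ± 0.02 in old and 7.15 ± 0.15 in young VSMCs (SD, n = 3 each). Young 3 held the lowest value of 45 genes (63.4%), against 44.7% of genes of like signal and 27.8% of all genes. Young 2 held the highest value of 23 genes, more than any other sample. The median of Young 3 minus the mean of the other 5 arrays was -0.25 over the 71 genes, -0.15 over genes of like signal and -0.02 over all genes.

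**Figure D4:**
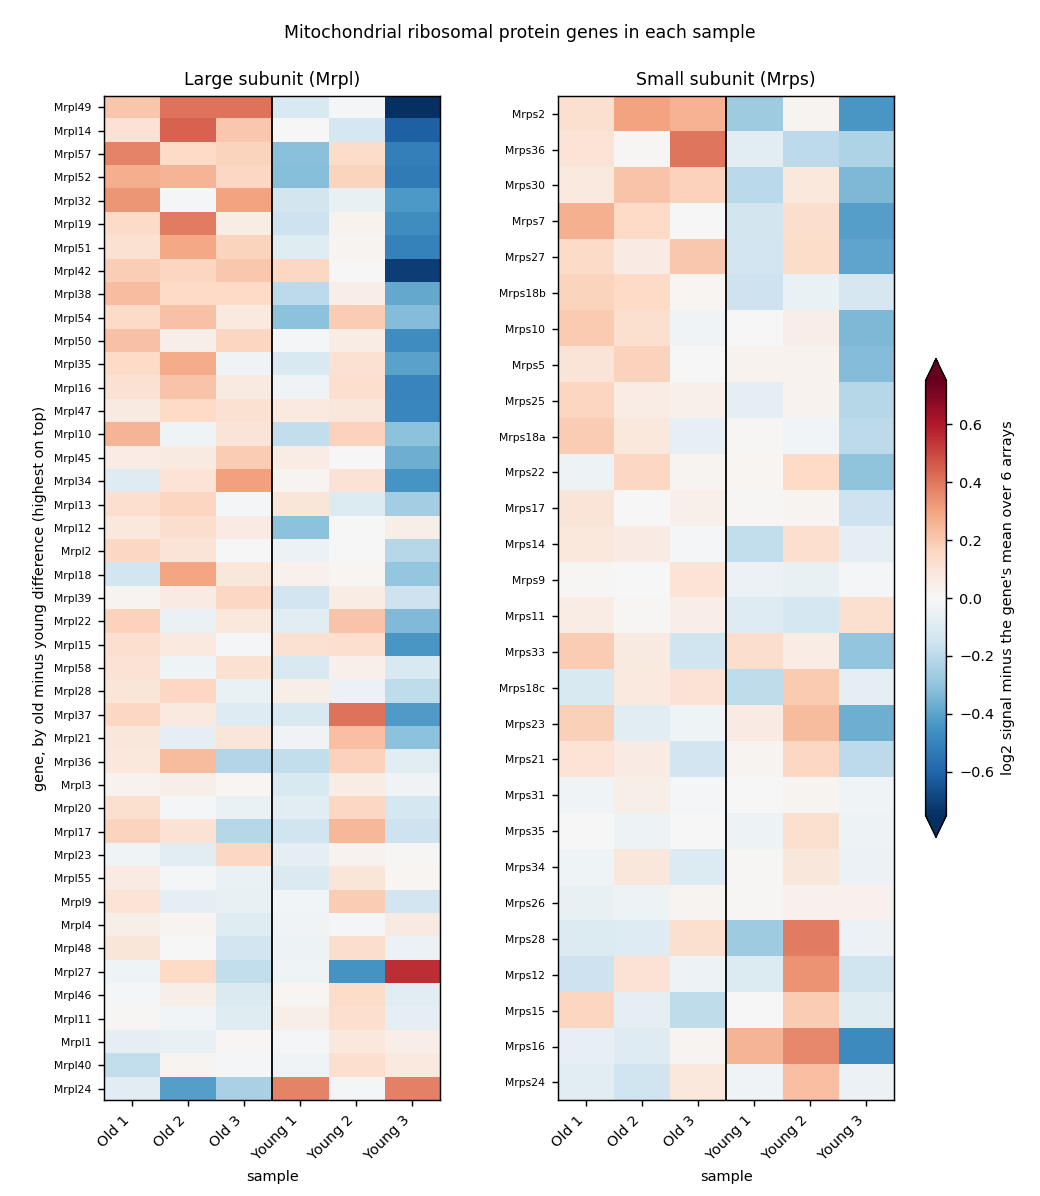
Log2 signal of each of the 71 genes minus its mean over the 6 arrays (colour), by sample (columns, old left of young) and gene (rows, ordered by old minus young difference within each subunit). The Young 3 column is blue in most rows, and 45 of the 71 genes have their lowest value there.

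Some other gene lists also had their lowest mean in Young 3. The mean of 5 proliferation markers was 7.86, 8.43 and 8.51 in Old 1 to Old 3, against 7.76, 8.40 and 7.34 in Young 1 to Young 3. The mean of 10 smooth muscle markers was 7.61, 7.81 and 7.63 in Old 1 to Old 3, against 7.02, 8.04 and 6.94 in Young 1 to Young 3. Both lists, like the ribosomal genes, had their lowest mean in Young 3, and Young 2 lay within or above the range of the old samples. They did not follow the ribosomal genes in every sample. Old 1 had the highest ribosomal mean but the lowest proliferation mean of the old samples. Among lists for other cell types, the means of 6 epithelial and mesothelial markers nearly met without overlap. They were 5.698 to 6.01 in old and 5.54 to 5.689 in young VSMCs. The means of 4 adipocyte markers did not overlap either, with 6.02 to 6.21 in old and 6.22 to 6.56 in young VSMCs. The means of 6 macrophage and leukocyte markers nearly met without overlap, at 5.429 to 5.517 in old and 5.521 to 5.92 in young VSMCs. In these lists Msln, a mesothelial marker, had a difference of 0.74 and Krt18 had 0.35, both past the unadjusted limit. Epcam had -0.12, and the groups overlapped in Epcam, Krt8, Upk3b and Cdh1. Fabp4, a fatty acid binding protein of adipocytes, had -1.13, past the limits of the study's methods. The other adipocyte markers did not share this drop. Plin1 (0.11) and Cidec (0.04) had differences above 0, Adipoq had -0.14, and the groups overlapped in each of them. For 6 endothelial markers the means were 5.31 to 5.62 in old and 5.39 to 5.53 in young VSMCs. For 5 fibroblast markers they were 8.27 to 8.45 in old and 8.33 to 8.64 in young VSMCs. Of these 5, 2 had differences above 0, namely Dpt (0.56, past the unadjusted limit) and Dcn (0.17), with groups that overlapped. Pdgfra (-0.93) was lower in every old sample than in any young sample. Of the 6 macrophage and leukocyte markers, 2 had differences above 0. Cd68 lay between 7.63 and 7.77 in old VSMCs, against 7.94, 8.43 and 10.33 in Young 1 to Young 3. The part that these marker differences had in the ribosomal differences was not tested.

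Large-subunit and small-subunit genes were then compared. The median difference was 0.16 over the 43 large-subunit genes, of which 34 were above 0, and 0.08 over the 28 small-subunit genes, of which 20 were above 0. Genes with every old sample above every young sample numbered 10 in the large subunit (23.3%) and 5 in the small subunit (17.9%), against 11.1% of all genes and 15.9% of genes of like signal. Per sample, the mean of large-subunit genes was 7.33, 7.33 and 7.28 in Old 1 to Old 3, against 7.17, 7.30 and 6.98 in Young 1 to Young 3. The mean of small-subunit genes was 7.27, 7.26 and 7.24 in Old 1 to Old 3, against 7.16, 7.30 and 7.02 in Young 1 to Young 3. The large-subunit mean minus the small-subunit mean was 0.058, 0.069 and 0.037 in the old samples, against 0.013, -0.003 and -0.037 in the young samples. These contrasts did not overlap between the groups, and no test was made of a mean over chosen genes. Without Young 3 the median difference was 0.06 in the large and 0.02 in the small subunit, with 31 and 15 genes above 0. Old then lay above young without overlap in 23.3% of large-subunit and 21.4% of small-subunit genes, against 16.5% of all genes.

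**Figure D5:**
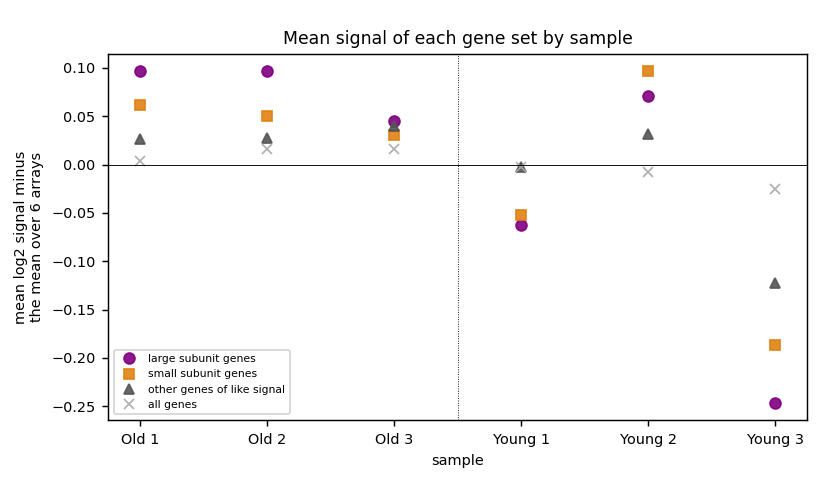
Mean log2 signal of each gene set minus its mean over the 6 arrays (vertical axis), by sample, for large-subunit genes, small-subunit genes, 2887 other genes of like signal and all genes. Both subunits lie above 0 in the old samples and in Young 2, and lowest in Young 3.

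Symbols and structure do not coincide fully, since the proteins of Mrps18a and Mrps30 sit in the large subunit. Mrps30 measured 7.41, 7.55 and 7.51 in Old 1 to Old 3, against 7.13, 7.41 and 7.00 in Young 1 to Young 3. Old 1 and Young 2 were level, and the 95% interval of its difference of 0.31 reached just below 0. With both genes moved, the medians were 0.16 over 45 large-subunit and 0.07 over 26 small-subunit genes. The Mrps18 family has 3 paralogues in mammals, each at its own place in the particle, and their differences were 0.22 for Mrps18b, 0.14 for Mrps18a and 0.04 for Mrps18c. Mrps18b measured 8.36, 8.34 and 8.20 in Old 1 to Old 3, against 8.04, 8.14 and 8.07 in Young 1 to Young 3, without overlap, and passed the unadjusted limit only with centred arrays or array weights.

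At the base of the stalk that recruits the translation factors, Mrpl10 measured 8.76, 8.48 and 8.60 in Old 1 to Old 3, against 8.32, 8.68 and 8.20 in Young 1 to Young 3, and the groups overlapped. The stalk protein Mrpl12 measured 6.67, 6.72 and 6.66 in Old 1 to Old 3, against 6.28, 6.59 and 6.64 in Young 1 to Young 3. The groups of Mrpl12 did not overlap, although Old 3 and Young 3 nearly met, and its difference was 0.18 with a 95% interval of -0.12 to 0.48. Mrpl11, which lies where elongation factors bind, measured 6.96, 6.93 and 6.86 in Old 1 to Old 3, against 6.99, 7.07 and 6.87 in Young 1 to Young 3. Mrpl1, of the opposite stalk near the exit site for spent tRNA, had a difference of -0.08 with an interval of -0.32 to 0.16.

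Around the exit tunnel, Mrpl24 (-0.50) was described above, and 3 other genes were measured. Mrpl45, which in mammals anchors the ribosome to the inner membrane, measured 7.39, 7.41 and 7.52 in Old 1 to Old 3, against 7.39, 7.33 and 6.97 in Young 1 to Young 3. Old 1 and Young 1 were nearly equal in Mrpl45, although the groups did not overlap, and the interval of its difference ran from -0.11 to 0.53. Mrpl22 and Mrpl23 had differences of 0.13 and 0.03, neither past the unadjusted limit. Among the 6 genes of the central protuberance, Mrpl38 alone passed it, and the 5 others lay between -0.11 for Mrpl40 and 0.16 for Mrpl18. Mrpl58, a peptidyl-tRNA hydrolase built into the large subunit, had a difference of 0.13 with an interval of -0.13 to 0.39, and Mrpl46 had -0.05 with an interval of -0.32 to 0.22.

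In the small subunit, Mrps12, a protein of the decoding centre, measured 6.73, 7.00 and 6.85 in Old 1 to Old 3, against 6.78, 7.22 and 6.74 in Young 1 to Young 3, with overlap and the highest value in Young 2. Mrps34, a mitochondrion-specific protein, had a difference of -0.03 with a 95% interval of -0.29 to 0.23. Mrps14 had a difference of 0.08, Mrps15 of -0.07, Mrps26 of -0.05 and Mrps24 of -0.10, and none of these 4 genes passed the unadjusted limit. In the large subunit, Mrpl39 had a difference of 0.16 with an interval of -0.11 to 0.43. Mrpl27, which lies near the peptidyl transferase centre, varied widely between young samples, at 5.42, 5.61 and 5.27 in Old 1 to Old 3, against 5.42, 5.01 and 6.01 in Young 1 to Young 3. Young 2 was its lowest and Young 3 its highest sample, whereas Young 3 was the lowest sample in 45 of the 71 genes.

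Old and young samples also did not overlap in 2 genes with small differences, Mrps25 (0.17) and Mrps9 (0.08), and in Mrpl42. Mrpl42 measured 6.93, 6.90 and 6.95 in Old 1 to Old 3, against 6.90, 6.74 and 6.04 in Young 1 to Young 3. Young 1 was level with the old samples in Mrpl42 and Young 3 far below, and the 95% interval of its difference of 0.37 ran from -0.12 to 0.86. Mrpl54 (0.29), Mrpl50 (0.29), Mrps7 (0.28), Mrpl35 (0.27), Mrps27 (0.27) and Mrpl16 (0.27) came next in size. In each of these 6 genes the groups overlapped through Young 2 and the lowest value was that of Young 3. Mrps7 may serve as the example, at 7.77, 7.65 and 7.51 in Old 1 to Old 3, against 7.36, 7.63 and 7.09 in Young 1 to Young 3. The genes not described singly lay between -0.05 for Mrps28 and 0.21 for Mrpl34.

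Grouped by origin, 31 of 41 genes with a bacterial counterpart had differences above 0, with a median of 0.08, and 4 passed the unadjusted limit as higher and 1 as lower. Of 25 genes with no bacterial counterpart, 18 were above 0, with a median of 0.13, and 5 were higher and none lower. Of 12 genes whose human counterparts cause mitochondrial disease, 8 were above 0, with a median of 0.07, Mrps2 was higher and Mrpl24 was lower. Over all genes tested the median was 0.03, with 6.71% higher and 4.72% lower. Without Young 3, 28 of the 41 genes with a bacterial counterpart were above 0, with 1 higher, 2 lower and a median of 0.04, and 13 of the 25 without one were above 0, with 1 higher, none lower and a median of 0.08. Of the disease genes 6 were then above 0, with a median of 0.01.

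Where a gene had 2 probe sets, both were read. In Mrps18b, Mrpl12, Mrpl10, Mrps5, Mrps17, Mrpl36 and Mrps16 the probe sets had differences of the same sign. In Mrpl47 the differences were 0.22 and -0.07, and in Mrps18c they were 0.04 and -0.38, none past an unadjusted p of 0.05. A further 7 genes of the family were read only by probe sets that carry another gene's symbol as well, and were left out of all counts. Among those, the probe set of Mrps6 and Slc5a3 measured 7.82, 8.68 and 8.36 in Old 1 to Old 3, against 7.26, 8.01 and 7.29 in Young 1 to Young 3, with a difference of 0.77 that passed the unadjusted limit in a limma fit over all probe sets. Which of the genes gave the signal cannot be told apart. The probe set of Mrpl43 and Twnk had a difference of 0.48 and did not pass. Shared probe sets of genes already counted gave 0.39 for Gcfc2 and Mrpl19 and 0.35 for Nme3 and Mrps34, both past the unadjusted limit, and the second stands beside -0.03 on the probe set of Mrps34 alone.

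Within 1000 bases of their start, 23 of the 62 genes with a promoter (37.1%) had the start of another gene pointing the other way, against 14.0% of tested genes. Mrpl46 and Mrps11 face each other across 42 bases, and their differences were -0.05 and 0.08. Mrpl49 faces Fau, a cytosolic ribosomal protein gene, across 192 bases, and Fau measured 10.82, 10.65 and 10.68 in Old 1 to Old 3, against 10.63, 10.79 and 10.63 in Young 1 to Young 3. The Fau groups overlapped, and its difference was 0.04, beside 0.68 for Mrpl49. Mrpl32 (0.42) faces Psma2 (0.12), Mrpl57 (0.46) faces Ska3 (near 0), Mrpl14 (0.50) faces Tmem63b (0.25) and Mrpl51 (0.38) faces Ncapd2 (0.28), and none of these 4 neighbours passed the unadjusted limit. Of 23 measured neighbours 2 passed it, namely Tcp1 (0.49), beside Mrpl18 (0.16), and Ighmbp2 (0.35), beside Mrpl21 (0.07).

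The 3 other mitoribosomal proteins measured under different symbols did not pass the unadjusted limit. Ptcd3 had a difference of 0.22, Dap3 of -0.07 and Gadd45gip1 of -0.01. The genes that work with the ribosome were then counted, from lists of known members. Of 15 mitochondrial translation factors, 12 had differences above 0, 3 were higher at an unadjusted p under 0.05 (20%) and none lower, with a median of 0.17. Beside these and the lists that follow, 6.71% of all genes were higher and 56.3% had differences above 0. Over the genes with signals like those of the ribosomal genes, the shares were 10.5% and 64.7%. Those genes were not matched to the signals of these lists. The median signal was 8.40 for the proteostasis genes and 12.95 for the mitochondrially encoded ones described below. Without Young 3, 10 of the 15 factors were above 0 and none was higher or lower, with a median of 0.07. Mrrf, the ribosome recycling factor, measured 8.66, 8.53 and 8.47 in Old 1 to Old 3, against 8.36, 8.20 and 7.99 in Young 1 to Young 3, without overlap, and Oxa1l, the insertase that receives new chains at the tunnel exit, had a difference of 0.32.

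Of 28 genes for assembly of the ribosome and modification of its RNA, 26 had differences above 0, 6 were higher (21.4%) and none lower, with a median of 0.12. Without Young 3, 25 were above 0 and 3 were higher (10.7%, against 5.03% of all genes in that fit), with a median of 0.12. Gtpbp10, a GTPase of large-subunit assembly, measured 8.46, 8.42 and 8.63 in Old 1 to Old 3, against 8.06, 8.05 and 7.42 in Young 1 to Young 3, without overlap. Fastkd2, which binds the large ribosomal RNA, measured 6.51, 6.43 and 6.59 in Old 1 to Old 3, against 6.00, 6.23 and 5.74 in Young 1 to Young 3, also without overlap. Young 3 was the lowest sample in both genes, and without it the differences were 0.45 for Gtpbp10 and 0.39 for Fastkd2, both past the unadjusted limit.

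Of 18 genes for transcription and maintenance of mitochondrial DNA, 15 had differences above 0, 5 passed the unadjusted limit as higher (27.8%) and none as lower, with a median of 0.18. Without Young 3, 12 were above 0, 4 were higher (22.2%) and 2, Polg2 and Pnpt1, were lower, with a median of 0.10. Mterf1a, which binds mitochondrial DNA beyond the ribosomal RNA genes, was the only gene of these partner lists past the limits of the study's methods. It measured 4.91, 4.59 and 5.40 in Old 1 to Old 3, against 4.01, 3.92 and 3.96 in Young 1 to Young 3 (difference 1.00, limma, adjusted p = 0.152). Mterf1a was dim, with all of these signals below that of the median gene (5.88). Tfam, which packages mitochondrial DNA and activates its transcription, measured 6.78, 7.02 and 6.95 in Old 1 to Old 3, against 6.46, 6.64 and 6.30 in Young 1 to Young 3. Tfb2m, the partner of the mitochondrial RNA polymerase at promoters, measured 7.90, 7.83 and 7.94 in Old 1 to Old 3, against 7.44, 7.48 and 7.28 in Young 1 to Young 3. Old and young samples did not overlap in Tfam or Tfb2m. They did not overlap in the opposite direction in Pnpt1 (-0.26) and in Polg2, a subunit of the mitochondrial DNA polymerase, which measured 5.91, 6.13 and 5.84 in Old 1 to Old 3, against 6.14, 6.89 and 9.53 in Young 1 to Young 3. The Polg2 difference of -1.56, the largest in absolute size of the list, rested mainly on Young 3 and was -0.56 without it. Of 21 mitochondrial tRNA synthetase and amidotransferase genes, 17 had differences above 0, none was higher and Pars2 (-0.30) was lower. The largest difference of that list was 0.60 in Gatc, with every old sample above every young sample, but it did not pass the unadjusted limit. Without Young 3 it was 0.29, 16 of the 21 genes were above 0, and none was higher or lower. Of 12 proteostasis genes, all 12 had differences above 0 and 3 were higher, among them Hspd1 (0.31), the mitochondrial chaperonin, and Afg3l2 (0.31), a subunit of the m-AAA protease that cuts Mrpl32, and without Young 3 10 were above 0 and none was higher.

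The 10 nuclear regulators measured had a median of 0.03, or 0.02 without Young 3, and none passed the unadjusted limit in either direction in either fit. Gabpb1, of the GABP complex, had a difference of 0.23, and Myc had -0.39 with groups that overlapped. The messages that the ribosome translates were read in the 10 mitochondrially encoded proteins with a probe set here, of which 1 had a difference above 0, none was higher and ND6 was lower at an unadjusted p under 0.05, with a median of -0.10. ND6, a subunit of complex I, measured 10.80, 10.61 and 10.66 in Old 1 to Old 3, against 11.09, 10.80 and 11.19 in Young 1 to Young 3. Old 1 and Young 2 were level in ND6. COX3 had a difference of -0.14 and did not pass the limit. Without Young 3, none of the 10 passed it, ND6 included, and the median was -0.08.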

How the data were processed

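RNA of 6 VSMC cultures (3 old, 3 young) was hybridised to Affymetrix whole-transcript arrays. Per the study's methods, the authors corrected background, quantile normalised and summarised probe sets by RMA (oligo), while the submitters' processing notes name Transcriptome Analysis Console, so which of these made the deposited table is not settled. Per the file's own range, the deposited table holds log2 signals, 1 value for each probe set and array, and no other values were used. Of 41345 probe sets, 23521 carried 1 symbol in GEO's platform annotation, 1820 several and 16004 none here. Array depth has no count equivalent, and the number of arrays limits the precision.

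Each gene was represented by its brightest probe set by mean over 6 arrays (22180 genes). Old minus young was fitted with limma 3.58.1 (lmFit and eBayes, R 4.3.3) over all genes with p-values adjusted by Benjamini-Hochberg, and the fit was tested on simulated data. No exact permutation p is given, since 3 samples against 3 cannot go below 0.1. Alternatives were other normalisations, signal filters, probe-set averaging, trended variances, weighted arrays, blocks by replicate number, a smaller limit on size and leaving out each sample. Leaving out Young 3 from the partner lists and gene classes was chosen after seeing the data.

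The genes, lists and tests were chosen with earlier results of these data known. Genes named were the 8 with the highest and 8 with the lowest moderated t, the 2 brightest and 2 dimmest of each subunit, those with textbook roles and, from partner lists, those past the limits or else the 2 with the largest absolute t. Mrps7, Mrps9, Mrps16, Mrps25, Mrps27, Mrps28, Mrps30, Mrpl16, Mrpl34, Mrpl35, Mrpl42, Mrpl50, Mrpl54, Mrpl19, Mrpl51, genes facing them and those on shared probe sets were named after their values were seen, as were Mrps11, Mrpl18, Mrpl21, Mrpl22, Mrpl23, Mrpl47, Mrps18a, Mrps18c, Gadd45gip1, Tfam, Tfb2m, Polg2, Pnpt1, Eif2s3y and the marker genes of cell types. Endothelial (median difference 0.05 over 6 genes), fibroblast (-0.10 over 5), macrophage and leukocyte (-0.12 over 6), epithelial and mesothelial (0.18 over 6) and adipocyte (-0.05 over 4) marker lists were read only as checks of cell type.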

Additional observations from a re-analysis of the deposited data

How the results depend on the processing

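No ribosomal protein gene passed the study's limits or an adjusted p under 0.05 in any alternative, except that 1 (Mrpl49) passed with a difference limit of 0.5 in place of 1. The count higher in old VSMCs ran from 2 (without Young 3) to 15 (without Young 2) when 1 sample was left out, and the count lower from 1 to 2. The median difference ran from 0.06 to 0.18 over all 71 genes, from 0.06 to 0.22 in the large and from 0.02 to 0.14 in the small subunit. With the arrays centred on their medians 12 genes were higher and 1 lower, with a median of 0.20, while all genes had a median of 0.11, and 75.7% of all calls were higher, against 58.7% as deposited. Replicate numbers did not pair the samples (same-number correlations 0.036, 0.019 and -0.015), and with the replicate block 9 genes were higher and 1 lower, Mrps36 being the one lost. Array weights ended the calls of Mrpl32 and Mrps36 and added Mrps18b, Mrps30 and Mrpl54, and centred arrays added Mrps18b and Mrps30. Mrps30 was also added with quantile normalisation, with trend and robust variances and with either filter on signal, and the filters left Mrps36 out. Over all genes, calls at an adjusted p under 0.05 numbered 10, against 0 without Old 2 or Young 2, 3 without Young 1, 5 without Old 3, 17 with signals under 5 left out, 22 with trend and robust variances, 28 with the replicate block and 76 with array weights. Small negative differences turned positive with centred arrays in Mrpl46 (0.0257), Mrps26 (0.0259), Mrps15 (0.00827), Mrpl11 (0.0115), Mrpl27 (0.0301), Mrps12 (0.0209) and Mrps34 (0.0446), with quantile normalisation in Mrpl46 (0.0257) and Mrpl27 (0.0233) and with array weights in Mrpl27 (0.0742). Over the fits without 1 sample, the lowest and highest differences were -0.283 and 0.219 for Mrpl27, -0.102 and 0.00536 for Mrpl46, -0.14 and 0.0985 for Mrps12, -0.166 and 0.0101 for Mrps15, and -0.0816 and 0.0113 for Mrps34. The causes were not tested.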
